A study of Mus musculus with 7 samples.

Results

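Gene expression in wild-type (WT) glioblastoma cells of the mouse was described on its own, from 3 of the 7 libraries of a series in which 4 further libraries came from Fyn-knockout tumours. The members are the genes that reached 10 counts in all 3 WT libraries, called the core below. They were 3466 of the 23282 gene entries of the table (14.9%). Of these entries, 10593 had no count in any WT library, so 14.9% is a low base for lists of expressed genes. The WT mice were adult C57BL/6 animals with glioblastoma. Their tumour cells were sorted by flow cytometry for tdTomato, a red fluorescent protein, each mouse on its own, and each gave 1 library. Libraries were made with QuantSeq, which reads tags at the 3' ends of polyadenylated RNA. The sources used here do not give how the tumours were started, which promoter drives tdTomato or the sex of the mice. Values are counts per 1000000 counts of the library (CPM) and were not divided by gene length. All libraries described here are of 1 group, so the spread between them is described and no test was made.

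Glioblastoma cells often resemble cell types of the developing brain. Among these states, one resembles oligodendrocyte progenitor cells (OPCs), the dividing precursors that express the transcription factors Olig2 and Sox10 and the PDGF receptor Pdgfra. As OPCs mature into oligodendrocytes they switch on genes of myelin, the membrane that wraps axons, such as Mbp and Cnp. Interferons, which are released during infection and inflammation, switch on antiviral genes and the genes by which cells present peptides on MHC molecules.

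The libraries held 11911864 to 16371244 counts, and 7723 to 9924 genes had a count. A gene with no count could have been present at up to 3 counts, which is 0.183 to 0.252 CPM, a limit that covers counting error only. The core took 72.2 to 79.2% of the counts (76.8 ± 4.02%, SD, n = 3). WT replicate 2 was the deepest library and had the most genes. Of the 10621 genes that reached 10 counts in any WT library, 55.1% did so in WT replicate 1, 85.5% in WT replicate 2 and 55.2% in WT replicate 3. A count of list members detected in a library is read against these shares.

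The 4 marker genes of the tumour cell type were in the core, and each was abundant in each library. Olig2 (chromosome 16, 91225457 to 91228677, plus strand, GRCm38) stood at 3575, 2973 and 1464 CPM in WT replicates 1, 2 and 3 (2671 ± 1087, mean ± SD, n = 3). Sox10 (chromosome 15, 79154908 to 79165240, minus strand) stood at 2104, 2191 and 1737 CPM (2011 ± 241). Pdgfra (chromosome 5, 75152292 to 75198215, plus strand) stood at 663, 1043 and 429 CPM (711.5 ± 310). Olig2, Sox10 and Pdgfra were each lowest in WT replicate 3, and Sox10 was the closest of them across the libraries. Mbp, the myelin basic protein gene, stood at 7954, 1095 and 8929 CPM (5993 ± 4269). It was low in WT replicate 2 and high in the others.

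Around these markers, 24 of the 30 genes of the OPC-like list were in the core (80%, against 14.9% of all entries). Olig1, the partner of Olig2 in specifying oligodendrocytes, stood at 3554.5, 3182 and 2128 CPM. Cspg5 (chromosome 9, 110243783 to 110262576, plus strand), a membrane proteoglycan of OPCs, stood at 3929, 3695 and 914 CPM, low in WT replicate 3. Cspg4, the proteoglycan NG2 that is also carried by pericytes, stood at 535.5, 1141 and 348 CPM. Of the 24 core members, 14 were lowest in WT replicate 3, 8 in WT replicate 2 and 2 in WT replicate 1, against 34.4, 31.7 and 33.9% of all core genes. More than 4-fold between the highest and the lowest library was reached by 9 of them (37.5%), against 48% of all core genes.

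Outside the core, 2 OPC-like genes had high values in WT replicates 1 and 2 and no count in WT replicate 3. Sox8, a relative of Sox10, stood at 225 and 175 CPM in those libraries. Lhfpl3, a membrane protein gene, stood at 259 and 318 CPM. Hes5, a transcription factor of the lineage list that acts downstream of Notch, had the same pattern with 261 and 148 CPM. Of the 20 lineage transcription factors, 13 were in the core (65%, against 14.9% of all entries). Only 2 of those 13 differed by over 4-fold, against 48% of all core genes. The mean level of that list, as log2(CPM + 1) over members with a count, was 7.21, 6.50 and 5.59.

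**Figure D1:**
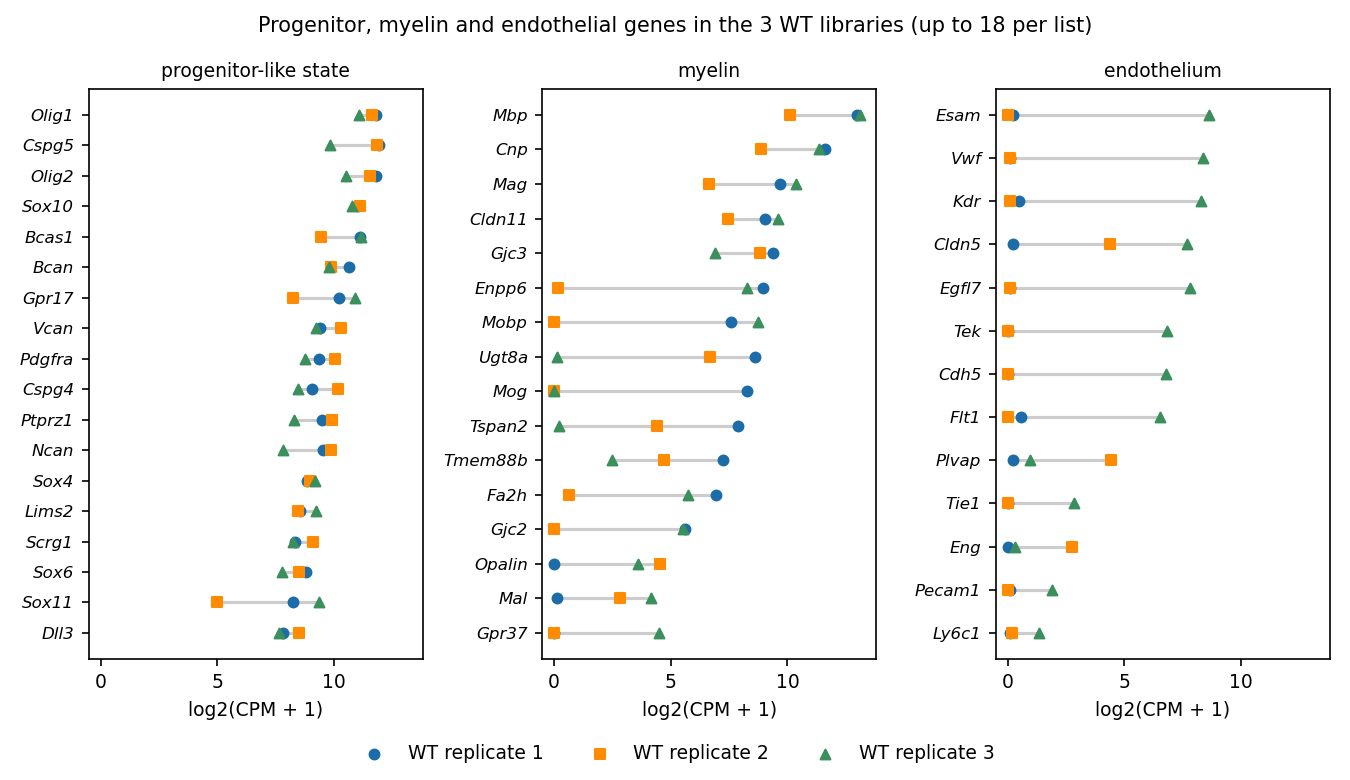
Level of OPC-like, myelin and endothelial genes as log2(CPM + 1), with up to 18 genes per list and 1 marker per WT library. Olig1, Olig2 and Sox10 lie close together, while Mbp and Cnp in WT replicate 2 (1095 and 463 CPM) sit below the other libraries. Most endothelial genes are near 0 except in WT replicate 3.

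Over the whole core, the libraries kept a set of abundant transcripts in common but ranked most genes differently. The median ratio of the highest to the lowest library was 3.83, with quartiles of 2.14 and 9.15. The highest library was WT replicate 1 for 35.1% of core genes, WT replicate 2 for 28.6% and WT replicate 3 for 36.4%, and the lowest for 33.9, 31.7 and 34.4%. Over 4-fold was reached by 1662 core genes (48%) and over 10-fold by 809, while 310 stayed under 1.5-fold. With only a pair of libraries compared, over 4-fold was reached by 931 core genes without WT replicate 1, by 1106 without WT replicate 2 and by 894 without WT replicate 3. The spread was narrower among abundant genes. Of the 2128 core genes with a mean of 100 CPM or more, 37.7% exceeded 4-fold, and of the 76 with a mean of 1000 CPM or more, 13.2% did. Across the 3466 core genes, Pearson's r of log2(CPM + 1) between libraries was 0.449 for WT replicates 1 and 2, 0.374 for 1 and 3, and 0.465 for 2 and 3. These are correlations across genes, which are not independent replicates.

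Apart from ribosomal RNA precursor, mitochondrial and predicted gene entries, the most abundant core transcripts were of the cytoskeleton, the nucleus and the oligodendrocyte lineage. The ribosomal RNA precursor Rn45s took 2.92, 1.41 and 2.63% of the counts of WT replicates 1, 2 and 3, more than any gene named here. Malat1, a nuclear non-coding RNA, stood at 9613, 10604 and 6065 CPM. Actb, the cytoplasmic actin gene, stood at 5064, 7310 and 7528 CPM, and Tubb2b, a neural beta-tubulin gene, at 5353, 4809 and 6662 CPM. Mbp, Tuba1a, Olig1, Cspg5, Marcks and Pcdhga9 were also among the first 10. Pcdhga9 shares its 3' exons with other genes of its protocadherin cluster, so its tags cannot be given to 1 gene of the cluster.

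Some core genes hardly varied. Among core genes with a mean of 100 CPM or more, those with the smallest ratios included Ptov1, Rpl27a, Kat6a, Txn1 and Nrxn2. Nrxn2 (chromosome 19, 6418731 to 6544169, plus strand), a presynaptic adhesion protein gene, stood at 1792, 1759 and 1837 CPM (1796 ± 39.6), a ratio of 1.04. Txn1, the gene of the redox protein thioredoxin, stood at 330, 325 and 323 CPM. At the other end, Ntm, an adhesion protein gene, stood at 738, 369 and 1.51 CPM. Sh3gl1, an endocytosis gene, stood at 0.783, 405 and 212.5 CPM. Atp6v0e2, a subunit of the proton pump of lysosomes, stood at 1.57, 302 and 643 CPM. Each of these was near absent in 1 library and abundant in another.

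Near-absence of this kind was common. A level of 100 CPM was reached in some WT library by 4827 genes, and 2002 of them (41.5%) stood below 1 CPM in a different one. Without WT replicate 1 the number was 698, without WT replicate 2 it was 1459 and without WT replicate 3 it was 662. Outside the core, 1531 genes had 10 or more counts in WT replicates 1 and 2 but not in 3, and 1498 had them in 2 and 3 but not in 1. Only 211 had them in WT replicates 1 and 3 but not in 2. In 1 library alone the numbers were 641, 2590 and 684. Of the genes of WT replicate 2 alone, 151 reached 100 CPM, against 169 of the 641 in WT replicate 1 alone and 181 of the 684 in WT replicate 3 alone. What makes an abundant gene missing in a library was not tested.

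**Figure D2:**
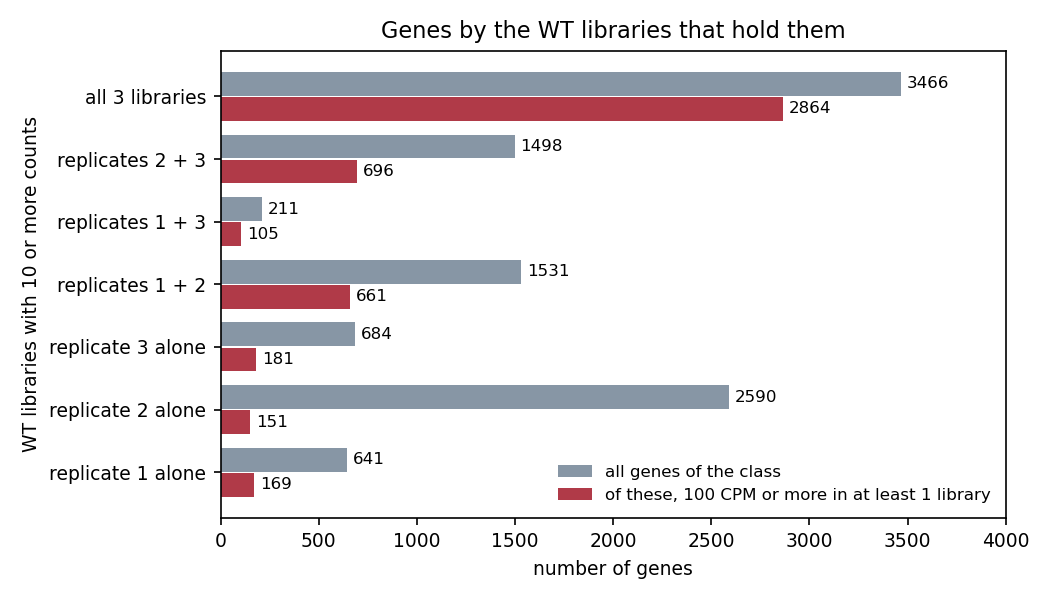
Number of genes by which WT libraries hold 10 or more counts, with a second bar for those of each class that reach 100 CPM in at least 1 library. The 3466 genes of all 3 libraries form the largest class, and WT replicate 2 alone adds 2590 genes, of which 151 reach 100 CPM.

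The share of genes in the core followed the level within a library. At 1000 CPM or above, 98.9, 100 and 100% of genes were in the core in WT replicates 1, 2 and 3. Between 100 and 300 CPM the shares were 65.2, 65.1 and 63.3%. Between 30 and 100 CPM they were 51.2, 31.7 and 51.6%, lower in WT replicate 2 than in the others. So about 1 in 3 genes at 100 to 300 CPM, which is over 1000 counts, lacked 10 counts in another library.

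**Figure D3:**
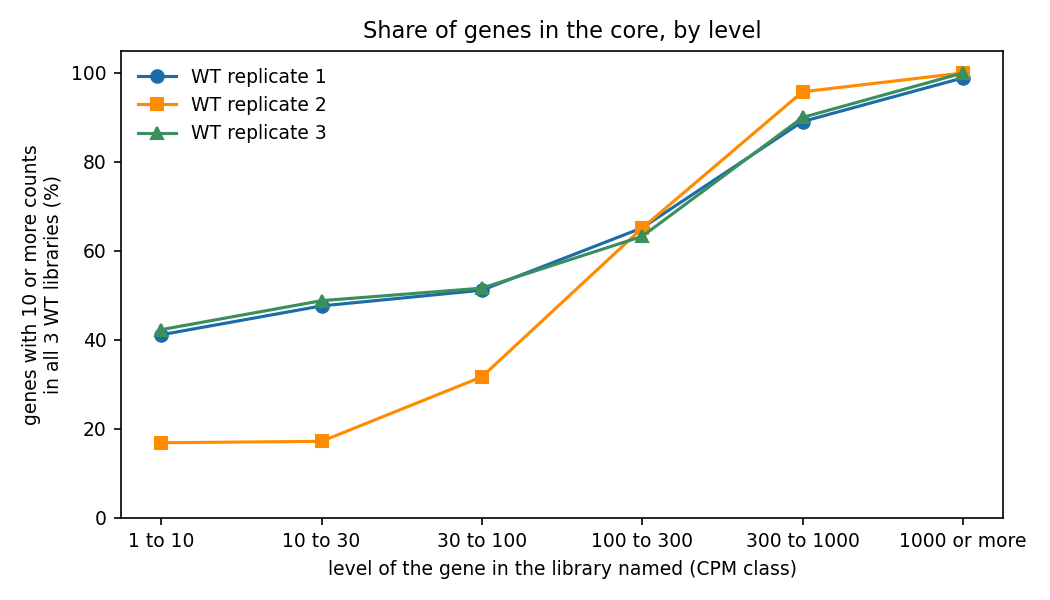
Share of genes that belong to the core, in percent, by the CPM of the gene in each WT library. The 3 libraries lie together between 100 and 300 CPM, and WT replicate 2 lies below the others in the classes under 100 CPM.

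Ribosomal and respiratory chain genes were almost wholly in the core. All 41 listed cytosolic ribosomal protein genes were members, at mean log2 levels of 7.77, 8.34 and 8.52. Over 4-fold was reached by 9 of them, against 48% of all core genes. Of these 41 genes, 29 were lowest in WT replicate 1, against 33.9% of all core genes. Rplp1, a protein of the ribosomal stalk, stood at 1096, 1329 and 1133 CPM, while Rps14 stood at 1147, 552 and 436 CPM. Tags of ribosomal protein genes can be shared with their pseudogenes. Nuclear-encoded subunits of the respiratory chain were in the core for 34 of 35 (97.1%, against 14.9% of all entries). Chaperones were for 17 of 23 (73.9%). Hspe1, a mitochondrial chaperonin gene outside the core, had no count in WT replicate 1 and 261 and 208 CPM in the others. Hsp90ab1, a cytosolic chaperone gene, stood at 1778, 3014 and 3126 CPM.

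**Figure D4:**
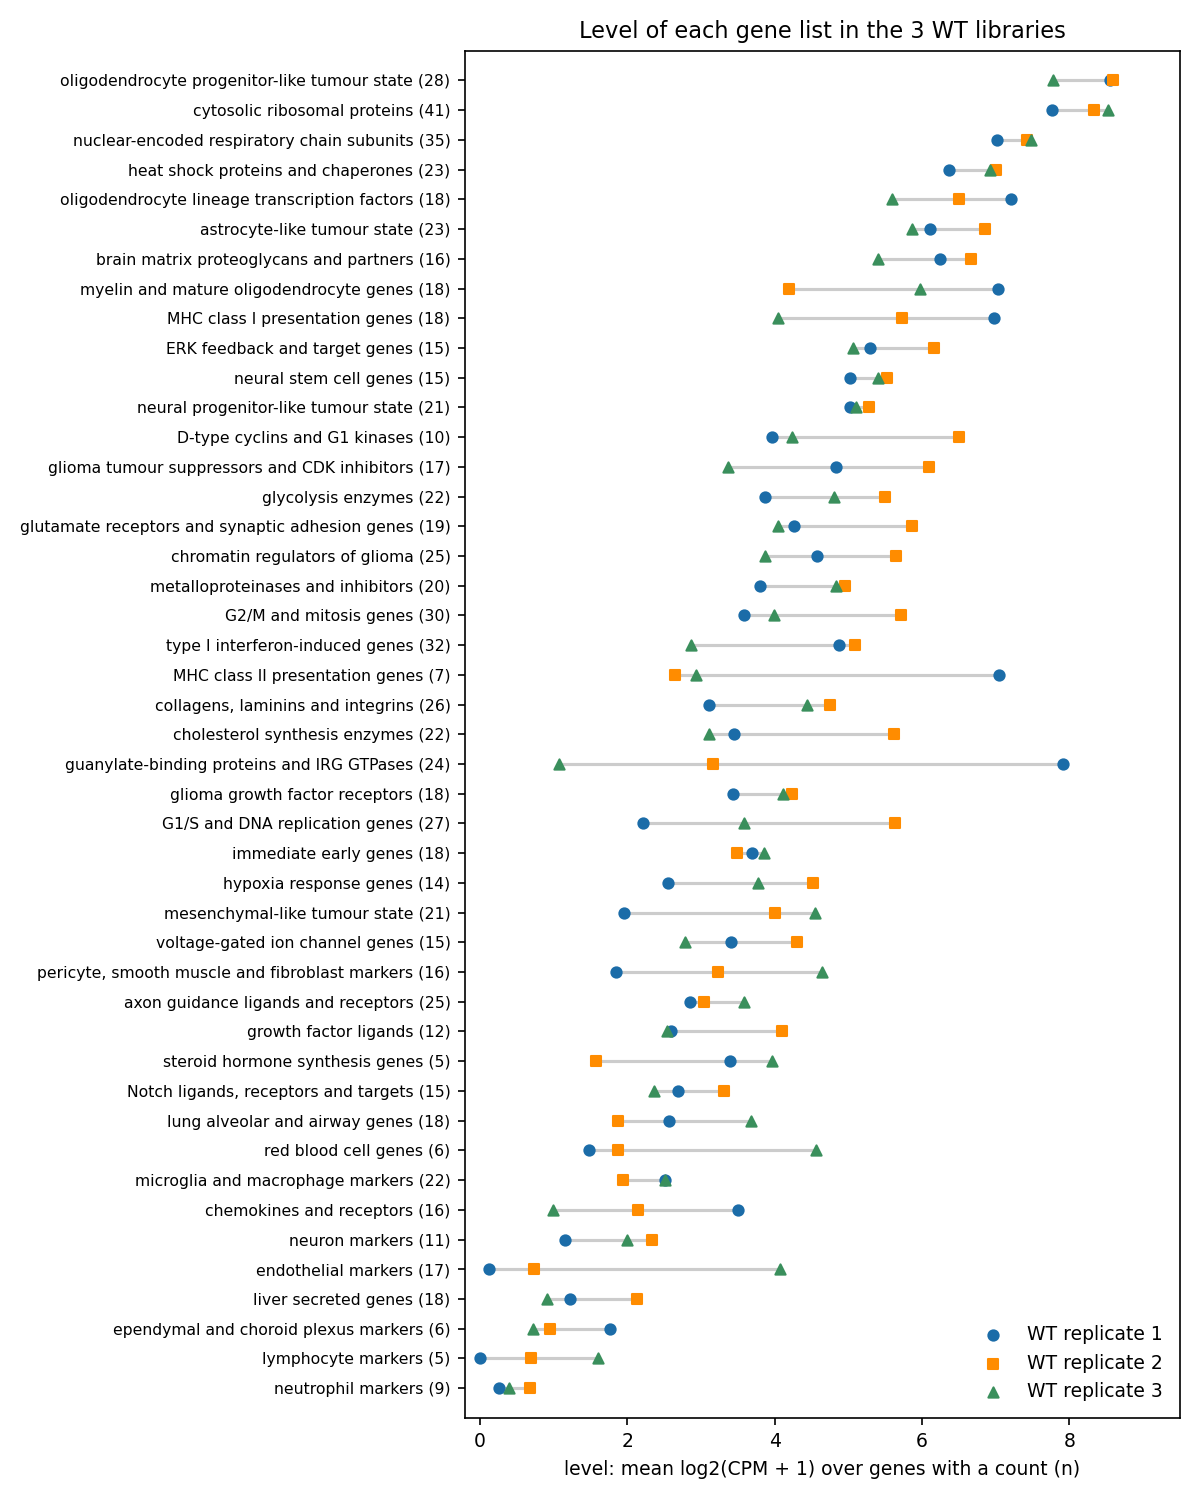
Mean log2(CPM + 1) of each gene list in the 3 WT libraries, over members with a count in at least 1 of them. Ribosomal and OPC-like genes lie together at the top. The widest gap is that of the list of guanylate-binding proteins and related interferon genes, at 7.91, 3.17 and 1.07. The endothelial list lies at 0.12, 0.74 and 4.07.

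Growth factor receptors of glioma varied by gene. Egfr, the epidermal growth factor receptor gene, stood at 202, 144 and 187 CPM. Ntrk2, a neurotrophin receptor gene, stood at 265, 697 and 25.9 CPM, and Ddr1, a collagen receptor gene, at 144, 506 and 296 CPM. Igf1r, a receptor for insulin-like growth factors, had 1.17 CPM in WT replicate 1 and 103 and 188 CPM in the others. In all, 6 of 23 receptors (26.1%) and 4 of 21 ligands (19.0%) were in the core, against 14.9% of all entries, so the share of the ligands lay near that of all genes. Pdgfa, a ligand of Pdgfra, was outside the core. It had 1 count in WT replicate 1 (0.0783 CPM) and stood at 296 and 201 CPM in WT replicates 2 and 3, although Pdgfra was present in all 3.

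Targets and feedback inhibitors of the ERK kinase pathway were in the core for 8 of 17 genes (47.1%, against 14.9% of all entries). Spry1, an inhibitor of receptor signalling, stood at 190, 126 and 285 CPM. Etv5, a transcription factor induced by the pathway, stood at 155.5, 212 and 139.5 CPM. Spry1 was lowest in WT replicate 2 and Etv5 in WT replicate 3. Etv4, its relative, had 0.313 CPM in WT replicate 1 and 138 and 175 CPM in the others.

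Fyn, the Src family kinase gene that is targeted in the other libraries of the series, was in the core. Fyn (ENSMUSG00000019843.14, chromosome 10, 39368855 to 39565381, plus strand) had 13276, 11785 and 19102 counts, which are 1039, 719.9 and 1604 CPM (1121 ± 448). Its ratio of highest to lowest library was 2.23, below the core median of 3.83.

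Tumour suppressor genes and cyclin-dependent kinase inhibitors were in the core for 9 of 17 (52.9%, against 14.9% of all entries), and 7 of those 9 differed by over 4-fold, against 48% of all core genes. Cdkn1b, which encodes the inhibitor p27, stood at 955, 829.9 and 611 CPM and was the steadiest of those named here. Rb1, the retinoblastoma gene, stood at 499, 94.7 and 1.43 CPM. Trp53, the gene of p53, stood at 58.5 and 205 CPM in WT replicates 1 and 2 and had no count in WT replicate 3. Of the 9 core genes, 7 were lowest in WT replicate 3, against 34.4% of all core genes. A zero of this kind was common, since 41.5% of genes that reached 100 CPM in a library stood below 1 CPM in a different one.

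Cell cycle genes were partly shared, and both phase lists were detected most in WT replicate 2, as were genes in general. The G1 cyclin Ccnd1 (chromosome 7, 144929931 to 144939925, minus strand) was abundant in all libraries at 2762, 4004 and 1057 CPM, and Cdk4, the kinase it activates, stood at 228, 247 and 377 CPM. The mitotic genes Cdk1, the kinase that drives entry into mitosis, and Top2a, which untangles DNA, were also in the core. Cdk1 stood at 446, 555 and 325 CPM and Top2a at 408, 765 and 280.5 CPM. Other mitotic genes were missing in WT replicate 1. Ccnb1, a cyclin of mitosis, had no count there and stood at 148 and 76.3 CPM in the others, while Ube2c, which helps to end mitosis, stood at 0.0783, 203 and 0 CPM. Of the 30 G2/M genes 13 were in the core (43.3%, against 14.9% of all entries). The genes with 10 or more counts numbered 17, 28 and 19. As shares these are 56.7, 93.3 and 63.3%, near the 55.1, 85.5 and 55.2% of all genes. The mean log2 level of the list was 3.59, 5.71 and 3.99, against 3.45, 4.79 and 3.46 over all 10621 genes.

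The G1/S and DNA replication list had the same order of libraries, with 7 of 30 genes in the core (23.3%, against 14.9%). Of its 27 genes with 10 or more counts in any library, 10 had them in WT replicate 1 (37.0%, against 55.1% of all genes), 27 in WT replicate 2 and 17 in WT replicate 3. Of the subunits of the MCM helicase, which unwinds DNA ahead of replication, Mcm5 stood at 0.0783, 418 and 10.6 CPM. Mcm3 had no count in WT replicate 1 and stood at 6.78 and 380 CPM, and Mcm4 had none and stood at 87.2 and 312 CPM. These 3 subunits were near absent in WT replicate 1, but their order differed between the other libraries. Other members went the opposite way. Uhrf1, which recruits the maintenance DNA methyltransferase, stood at 90.8, 25.6 and 1.09 CPM. Of the 7 core members, 3 were highest in WT replicate 1, near the 35.1% of all core genes. The mean log2 level of the list was 2.22, 5.64 and 3.59.

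Myelin genes were lowest in WT replicate 2 as a list, at mean log2 levels of 7.03, 4.20 and 5.97. All 7 core members of the myelin list differed by over 4-fold, and 5 of them were lowest in WT replicate 2, against 48 and 31.7% of all core genes. Cnp, a myelin enzyme gene, stood at 3129, 463 and 2616 CPM, and Mag, an adhesion protein of myelin, at 808.5, 98.0 and 1313 CPM. In each case WT replicates 1 and 3 lay together and WT replicate 2 apart. Outside the core, Mobp had no count in WT replicate 2 and stood at 188 and 422 CPM in the others. Enpp6, a gene of newly formed oligodendrocytes, stood at 489, 0.122 and 303 CPM.

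Not every gene of the list followed this order. Mog, a late myelin gene, had 310 CPM in WT replicate 1 and no count in the others. Ugt8a, which makes a myelin lipid, stood at 386, 103 and 0.0840 CPM. Summed over the list, the level was 21853, 3383 and 21463 CPM. WT replicate 2 was the deepest library and held the most genes, yet it had the lowest sum here. In bulk samples, fewer cells of a type and less RNA per cell cannot be told apart.

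Genes induced by interferon gamma were highest in WT replicate 1. One list holds the guanylate-binding proteins and immunity-related GTPases (IRG), which attack intracellular pathogens. It also holds other genes, among them Irf1, Irf8, Cxcl9, Cxcl10 and Socs1. All 24 members of the list with a count had 10 or more counts in WT replicate 1, 15 in WT replicate 2 and 5 in WT replicate 3. As shares these are 100, 62.5 and 20.8%, against 55.1, 85.5 and 55.2% of all genes. Their summed level was 10823, 885 and 435 CPM. Of the 25 genes, 3 were in the core (12%, against 14.9% of all entries). Promoters of 4 genes of the list are shown here because these genes shared a pattern, high in WT replicate 1, and carry a match to the interferon-stimulated response element (ISRE), the sequence bound by interferon-activated factors. The capitals mark each match to GAAANNGAAA on either strand. Each sequence is 250 bases before to 50 after the start site, 5′ to 3′ in the direction of transcription, from RefSeq promoters on GRCm38.p6. Igtp lies at chr11:58199306-58199605 (plus strand), Gbp2 at chr3:142620413-142620712 (plus), Cxcl10 at chr5:92348840-92349139 (minus) and Socs1 at chr16:10785487-10785786 (minus).
Igtp: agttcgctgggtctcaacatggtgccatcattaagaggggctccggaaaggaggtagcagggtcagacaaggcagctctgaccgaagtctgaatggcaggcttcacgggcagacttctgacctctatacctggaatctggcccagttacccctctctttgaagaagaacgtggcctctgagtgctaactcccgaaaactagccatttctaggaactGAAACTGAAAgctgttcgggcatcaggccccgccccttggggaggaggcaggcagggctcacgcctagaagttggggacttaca
Gbp2: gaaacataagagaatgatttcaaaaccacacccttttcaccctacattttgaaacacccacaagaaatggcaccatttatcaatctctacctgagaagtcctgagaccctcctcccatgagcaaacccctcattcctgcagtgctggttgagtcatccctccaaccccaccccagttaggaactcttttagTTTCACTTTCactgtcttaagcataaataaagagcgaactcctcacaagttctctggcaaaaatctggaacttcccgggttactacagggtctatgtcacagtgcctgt
Cxcl10: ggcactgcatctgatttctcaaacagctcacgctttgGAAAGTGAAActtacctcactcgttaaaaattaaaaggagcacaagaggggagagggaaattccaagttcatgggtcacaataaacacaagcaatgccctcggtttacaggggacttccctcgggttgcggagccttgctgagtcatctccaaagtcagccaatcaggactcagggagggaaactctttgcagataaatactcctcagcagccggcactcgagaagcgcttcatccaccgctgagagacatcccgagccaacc
Socs1: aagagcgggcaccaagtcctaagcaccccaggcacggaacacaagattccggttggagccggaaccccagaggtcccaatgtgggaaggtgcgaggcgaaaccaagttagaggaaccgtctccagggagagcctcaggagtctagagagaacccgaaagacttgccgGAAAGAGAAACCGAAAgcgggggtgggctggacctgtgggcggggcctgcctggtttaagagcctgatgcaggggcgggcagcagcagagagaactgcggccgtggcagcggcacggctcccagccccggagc

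The match began 34 bases before the start site in Igtp, 59 in Gbp2 and 213 in Cxcl10, and Socs1 held 2 overlapping matches at 77 and 83. Of 18 promoters of the list in RefSeq (15 genes), 11 held the ISRE match (61.1%), against 3.44% of all 32851 promoters of that length. The gamma-activated site TTCNNNGAA was in 8 of the 18 (44.4%), against 8.30% of all promoters. Both motifs were searched on both strands. Some genes of the list that were high in WT replicate 1, such as Irf1 and Ifi47, had no ISRE match in this window. A match is a description of the letters and not a binding site.

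Igtp, a GTPase that acts on parasite vacuoles, stood at 2547, 219 and 0.168 CPM. Gbp2, a guanylate-binding protein gene, stood at 964, 0.0611 and 1.93 CPM, and Cxcl10, a chemokine that draws T cells, at 485, 0.367 and 0 CPM. Socs1, which damps interferon signalling, had 145 CPM in WT replicate 1 and no count in the others. Irf1, a transcription factor induced by interferon gamma, was in the core at 1099, 9.04 and 298 CPM. All of these were highest in WT replicate 1, while the order of the other libraries changed from gene to gene. The pair Tgtp1 and Tgtp2 (692 and 702 CPM in WT replicate 1) is near identical, and its tags can be assigned to either.

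Genes of antigen presentation were on average highest in WT replicate 1, at mean log2 levels of 6.98, 5.73 and 4.05 for class I and 7.04, 2.65 and 2.93 for class II. For MHC class I, 8 of 10 core members were highest there, against 35.1% of all core genes, and 9 of the 10 differed by over 4-fold, against 48%. H2-K1, a class I heavy chain gene, stood at 4669, 818 and 1106 CPM, and its tags may be shared with H2-D1. B2m, the light chain gene, stood at 3819, 1437 and 1529 CPM. For class II, H2-Ab1 stood at 591, 1.28 and 115 CPM and H2-Eb1 at 635, 17.1 and 1.09 CPM. Class I was present in all libraries, while both class II genes were highest in WT replicate 1.

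Type I interferon-induced genes were partly shared. Of 32, 15 were in the core (46.9%, against 14.9% of all entries). Over 4-fold was reached by 12 of those 15, against 48% of all core genes. Of the 15, 9 were highest in WT replicate 1, against 35.1%. Ifit3, an antiviral RNA-response gene, stood at 1186, 218 and 314 CPM. Irf9, which encodes a DNA-binding partner in type I interferon signalling, stood at 541, 204 and 38.4 CPM. The mean log2 level of the list, over its 32 members with a count, was 4.88, 5.09 and 2.86. Over all 12689 genes with a count in at least 1 WT library it was 2.90, 4.02 and 2.92. The list thus lay above that level in WT replicates 1 and 2 and near it in WT replicate 3. Of 24 promoters of this list, 12 held the ISRE match (50%).

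**Figure D5:**
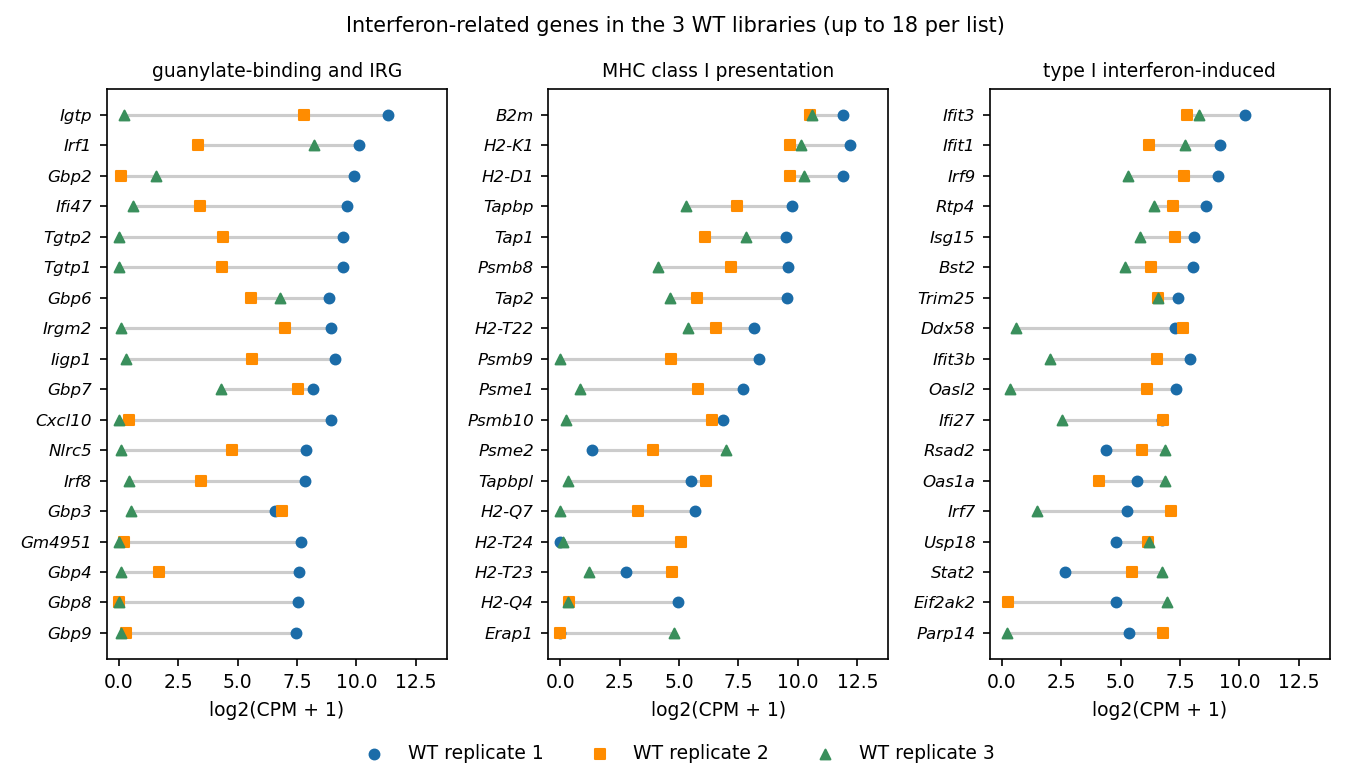
Level of interferon-related genes as log2(CPM + 1), with up to 18 genes per list and 1 marker per WT library. WT replicate 1 is highest for all genes drawn of the guanylate-binding and IRG list except Gbp3, which stands at 95.8, 115 and 0.420 CPM. B2m is high in each library.

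Markers of immune cells had other orders. P2ry12, a microglial receptor gene, had no count in any WT library, and Tmem119 had 1 count in WT replicate 1 alone. Cx3cr1, the fractalkine receptor gene of microglia, had 1 count in WT replicate 2 alone. The pan-leukocyte gene Ptprc had 1, 1 and 10 counts. C1qb, a complement gene of macrophages, stood at 28.5, 39.2 and 189 CPM, and Csf1r, the receptor that keeps macrophages alive, at 171, 118 and 0.252 CPM. Over the list of 25, 4 genes were in the core (16%), near the 14.9% of all entries. The summed level was 1313, 416 and 1215 CPM. Of this, Ctss, a protease gene that the class II list also holds, gave 724, 141 and 536 CPM. Lymphocyte markers summed to 0, 9.90 and 148 CPM. Of 17 in the table, 5 had a count, and Thy1, which neurons also express, gave nearly all of the sum at 0, 9.90 and 148 CPM. Cd3e and Cd79a, which mark T and B cells, had no count.

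Endothelial genes stood out in WT replicate 3. Of 13 members that reached 10 counts in any library, 0 had 10 or more counts in WT replicate 1, 3 in WT replicate 2 and 12 in WT replicate 3 (92.3%, against 55.2% of all genes). Their summed level was 1.64, 47.3 and 1780 CPM. Vwf, the von Willebrand factor gene, stood at 0.0783, 0.0611 and 327 CPM, and Esam, a junction protein gene, at 0.157, 0 and 392 CPM. Kdr, the VEGF receptor gene, stood at 0.391, 0.0611 and 307 CPM. Pecam1, another defining gene, had only 1, 0 and 32 counts. Their part in other results of WT replicate 3 was not tested.

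Mural and fibroblast genes were mixed. Their mean log2 level was 1.85, 3.23 and 4.64, highest in WT replicate 3, but their summed level was 1248.5, 2433 and 2331 CPM, highest in WT replicate 2. Of 18 genes, 3 were in the core (16.7%), near the 14.9% of all entries. These 3, Pdgfra, Cspg4 and Acta2, were each lowest in WT replicate 3. The first 2 are also genes of OPCs, and which cells their tags came from was not tested. Pdgfrb, the PDGF receptor of pericytes, had 314 CPM in WT replicate 3 and no count in the others. Des, a muscle filament gene, stood at 0.0783, 0.122 and 290 CPM, and Col1a2, a fibrillar collagen gene, at 0.548, 12.7 and 408 CPM. Acta2, the smooth muscle actin gene, stood at 40.3, 53.3 and 1.34 CPM. Red blood cell genes were highest in WT replicate 3 too, with a summed level of 25.8, 100.5 and 667 CPM. Hba-a1, an alpha-globin gene near identical to Hba-a2, stood at 17.7, 68.2 and 326 CPM.

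Transcripts of organs other than brain were present at low to moderate levels. Lung genes summed to 638, 252 and 1239 CPM, and Sftpc, a surfactant protein gene, stood at 92.8, 74.9 and 398 CPM in WT replicates 1, 2 and 3. Alb, the albumin gene of liver, stood at 423, 304.5 and 267 CPM. Of the genes of steroid hormone synthesis, Cyp11a1, the first enzyme of the pathway, stood at 4.46, 0 and 144 CPM and Star had 0, 0 and 446 counts. Neuron markers summed to 295, 420.5 and 656 CPM, and 11 of 21 had a count. Map2, which young glia also express, gave 275, 332 and 465.5 CPM of this, Rbfox3 had 30.6 CPM in WT replicate 2 alone, and Snap25 had no count. Ependymal and choroid plexus markers summed to 53.9, 50.1 and 5.62 CPM, of which Aqp1, a water channel gene, gave 42.7, 50.1 and 3.11 CPM, while Folr1 and Foxj1 had no count. Where the lung, liver and steroid transcripts came from was not tested.

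Astrocyte-like genes were in the core for 14 of 23 (60.9%) and mesenchymal-like genes for 6 of 22 (27.3%), against 14.9% of all entries. S100b, a calcium-binding protein gene of glia, stood at 2589, 1348 and 1428 CPM. Gfap, the astrocyte filament gene, stood at 96.4, 7.76 and 91.2 CPM, far below Olig2 in each library. Mesenchymal-like genes had a mean log2 level of 1.96, 4.01 and 4.55. Lgals1, a galectin gene, had no count in WT replicate 1 and stood at 226 and 277 CPM in the others, and Vim, an intermediate filament gene, stood at 321, 242 and 556 CPM. Neural progenitor-like genes had close mean log2 levels of 5.02, 5.28 and 5.10, but these averaged members with opposite orders. Of its 10 core members, 4 differed by over 4-fold, against 48% of all core genes. Sox4, a progenitor transcription factor, stood at 465, 506 and 577 CPM. Its relative Sox11 stood at 302, 31.2 and 663 CPM, lowest in WT replicate 2. Tagln3, a neuronal cytoskeleton gene, stood at 132, 602 and 0 CPM, highest there.

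Genes of cell contact were partly shared. Of 24 glutamate receptor and synaptic adhesion genes, 8 were in the core (33.3%, against 14.9% of all entries). Among them was Gria2, an AMPA receptor subunit, at 245, 132 and 250 CPM. Of 30 collagen, laminin and integrin genes, 11 were in the core (36.7%). Col11a1, a collagen gene, was steady at 251, 289 and 267 CPM, and Itgb1, the common beta integrin subunit, stood at 407, 1206 and 1220 CPM. Of 20 voltage-gated ion channel genes, 5 were in the core (25%). Kcnj16, a potassium channel gene of glia, was in the core at 342, 261 and 380 CPM.

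Chromatin regulators and cholesterol synthesis enzymes were also partly shared. Of 25 chromatin genes 12 were in the core (48%, against 14.9% of all entries). Over 4-fold was reached by 7 of the 12, against 48% of all core genes. H3f3b, which encodes a histone H3 variant, stood at 360, 770 and 366 CPM. Dnmt1, the maintenance DNA methyltransferase gene, stood at 389, 124 and 0.0840 CPM. Of 22 cholesterol enzymes 7 were in the core (31.8%), and Cyp51, a demethylase of the pathway, stood at 9.16, 244.5 and 208.5 CPM. Dnmt1 was near absent in WT replicate 3 and Cyp51 was low in WT replicate 1.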

How the data were processed

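Counts of 3' tags were used as the authors deposited them, in a table of 23282 entries that the authors call modified. The sources used here do not give what was modified, the annotation or the strand of counting. The submitters' processing notes name Bowtie2, bedtools, DESeq2 1.32.0 and the build mm10 (GRCm38), without the versions of the first 2 tools. The values are whole numbers without molecular identifiers. The column of WT replicate 3 shares its name with the title of a different WT sample, so it was joined to the WT group only. Replicate numbers follow the columns. Repeated symbols (46) and symbols that look like dates (27) were each kept as an entry.

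CPM were computed over each column total with pandas 2.3.3. Scaling factors for the alternatives came from edgeR 4.0.16 in R 4.3.3. The core needed 10 counts in all 3 libraries. The 45 gene lists held 979 entries, of which 7 were not in the table. A list's level is the mean of log2(CPM + 1). Motifs were searched in RefSeq promoters of GRCm38.p6, and coordinates are from GENCODE M21, in which 366 of the 367 genes taken by the naming rule have 1 entry. That rule took, for each list, up to 5 core genes of highest mean and up to 4 others of highest single CPM, with the 10 most abundant, most variable and steadiest core genes, the 10 highest genes of each library alone, Fyn and the markers. From these the text names examples, and some genes that the rule takes are not reported here. The defining markers of other cell types, Gbp3, Gfap, Rps14 and Socs1 were named besides, the last 4 after their values were seen. The 4 promoters were chosen after values and matches were seen. Tgtp1 and Tgtp2 were dropped as near identical. Irgm2 and Gbp7 were then dropped, as their bases after the start site matched no GENCODE transcript of the gene. The members and lists were chosen with earlier results of these data known. Depth was 11911864 to 16371244 counts per library. Nothing was compared with the Fyn-knockout libraries. Only the call of core genes over 4-fold between libraries was tested on simulated data, which held counting error alone.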

Additional observations from a re-analysis of the deposited data

How the results depend on the processing

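At 1 or more counts in place of 10 the core held 5533 genes, and its size stayed within 1.5 times of 3466 at 5, 20 or 50 counts, after scaling to the smallest total and without any 1 library. Leaving out 1 library, the core genes over 4-fold numbered 894 to 1106 in place of 1662, and the genes at 100 CPM or more in 1 library and under 1 CPM in another numbered 662 to 1459 in place of 2002 (lowest without WT replicate 3, highest without WT replicate 2), since fewer libraries enter the range. Genes outside the core with 100 CPM or more in a library numbered 1963, against 3772 at 50 CPM and 509 at 200 CPM. TMM and RLE factors changed which library was highest for 2 of 45 lists (respiratory chain, microglia), a pseudocount of 5 for 3 (OPC-like, type I interferon, microglia) and a pseudocount of 0.5 for none. No paired analysis was possible because all libraries described are of 1 group and no test was made. By counting error alone, depth limits a gene with no count to at most 0.183 to 0.252 CPM. The 3 libraries of 1 group give no error on which library is unusual.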

Other observations

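Xist, the non-coding RNA that silences an X chromosome, had 6802, 14 and 3202 counts in WT replicates 1, 2 and 3 (532, 0.855 and 269 CPM). Its antisense partner Tsix had 6222, 13 and 1458. Without the strand of counting, tags of this pair cannot be told apart. Of 4 Y-linked genes, looked up after the values of Xist were seen, Eif2s3y and Kdm5d had no count, Uty had 1 in WT replicate 2 and Ddx3y had 9 in WT replicate 3.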
